A study of Mus musculus with 15 samples.

Results

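Mouse blood stem and progenitor cells carrying 1 floxed Apc allele together with the hypomorphic allele 1638N were compared with cells carrying the floxed allele together with the hypomorphic allele 1572T. The arrays titled for each allele were taken, 3 for 15lox/1638N and 3 for 15lox/1572T, which makes 6 of the 15 samples of the series. All samples came from bone marrow LSK cells (lineage-negative, Sca1-positive and Kit-positive) of the strain C57BL6. They were held in Stemspan medium with mFlt3L, mTpo and mSCF, received the retrovirus MSCV-Cre-IRES-GFP ex vivo and were sorted for GFP. Wild-type controls (wt/wt) went through the same transduction and sort, as did 15lox/15lox cells, in which Cre can recombine both copies of Apc. In both hypomorph genotypes Cre acts on the 15lox copy, so that the 1638N or the 1572T copy is what remains, and the labels do not say in what share of the sorted cells recombination took place. RNA of over 10000 cells per sample was amplified with Nugen Ovation V2, labelled with biotin and hybridised to 1 array. Age and sex of the mice are not in the labels, which also do not say whether replicates were separate animals; p-values therefore measure only the spread between these samples.

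Apc is a scaffold of the cytoplasmic complex that marks beta-catenin for destruction. When this complex fails, beta-catenin accumulates, enters the nucleus and activates transcription with factors of the Tcf/Lef family. Targets of that transcription include several inhibitors of the pathway itself, such as Axin2, so their level is widely used as a readout of Wnt signalling. In blood stem cells the strength of the Wnt signal is known to matter, and hypomorphic alleles of Apc give graded strengths.

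The 15 arrays had medians between 6.65 and 6.84 on the log2 scale. Precision is limited by having 3 arrays a genotype. Wild-type arrays 1 to 3 were left out because their set mean lay within 0.05 of that of wild-type arrays 4 to 6 at 96.8% of probe sets, against 20.2% to 26.1% for the other pairs of sets. The fit held the 6 hypomorph arrays, 3 wild-type arrays (4 to 6) and 3 15lox/15lox arrays. On the 6 hypomorph arrays Kit read 10.75 to 11.52, Cd34 13.26 to 13.60 and Flt3 12.01 to 12.40. The lineage genes Cd3e (4.72 to 5.13), Itgam (4.78 to 4.97) and Cd79a (5.38 to 5.66) were low on the same arrays. Probe sets of Y-linked genes read 3.67 to 5.61 on arrays with high Xist, which gives the level of a probe set without its target. Xist was high on 1 of 3 arrays in each hypomorph group, 2 of 3 in 15lox/15lox and 0 of 3 in wild type.

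A short list of genes separated the alleles, nearly all of them higher in 15lox/1638N, among them Axin2, Apcdd1 and Dkk2, inhibitors of the Wnt pathway. Of 18194 genes tested, 64 (0.352%) passed an adjusted p of 0.05 in limma, 60 (0.33%) higher and 4 (0.022%) lower in 15lox/1638N. At least 2-fold differences were seen for 53 of them (0.291%), and 21 of the 60 were at least 4-fold higher. On all 64 the 3 arrays of one allele lay outside the range of the other, whereas among all genes the 15lox/1638N arrays lay wholly above for 6.96% and wholly below for 7.16%. The median log2 fold change of all genes was -0.01, on values that had already been normalised between arrays. With the 6 hypomorph arrays fitted alone, 16 genes passed (15 higher), of which 15 were among the 64. Axin2, Apcdd1 and Dkk2 were not among these 16. Without 15lox/1572T array 2 the count was 38. For 7 of the 60 genes (Edar, Mb21d2, Dclk1, Sncaip, Tfcp2l1, Nrip3 and Dkk2) all 15lox/1572T arrays read within the level of a probe set without its target. Their fold changes are therefore taken against readings that may hold no signal, and the order of such readings carries no information.

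Of the 30 gene lists, that of Wnt feedback inhibitors had the most members past the threshold, with 3 of 19 measured members higher and 0 lower in 15lox/1638N (5 higher and 0 lower at an unadjusted p under 0.05, where 3.74% of all genes were higher and 5.5% lower). With the 6 hypomorph arrays fitted alone, 0 members of this list passed. Axin2, a scaffold of the destruction complex that beta-catenin itself induces, read 7.69, 8.80 and 9.32 on the 15lox/1572T arrays and 11.17, 11.10 and 11.51 on the 15lox/1638N arrays. Its wild-type arrays read 7.26, 7.38 and 7.57 and its 15lox/15lox arrays 12.28, 12.29 and 11.94. No genotypes overlapped, and levels went up from wild type through 15lox/1572T and 15lox/1638N to 15lox/15lox. Axin2 was 6.29-fold higher in 15lox/1638N than in 15lox/1572T, a log2 fold change of 2.65 ± 0.31 (SE; adjusted p = 0.00399), and its adjusted p was 0.093 when the 6 hypomorph arrays were fitted alone. A second and dimmer Axin2 probe set gave 0.59 (adjusted p = 0.569 over all probe sets), and the mean of both gave 1.62 ± 0.24 (adjusted p = 0.0106). The difference of 1.20 ± 0.31 between 15lox/1572T and wild type did not pass (adjusted p = 0.294).

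Apcdd1, a membrane glycoprotein that inhibits Wnt signalling at the receptor, read 9.12, 9.28 and 9.99 in 15lox/1572T and 11.50, 11.25 and 11.81 in 15lox/1638N. The 15lox/1572T arrays overlapped the wild-type arrays (9.04, 9.44 and 9.67), and the 15lox/1638N arrays stood clear of both and below those of 15lox/15lox (12.37, 12.29 and 12.64). Its log2 fold change between the hypomorphs was 2.06 ± 0.23 (4.16-fold, adjusted p = 0.00286). Tested singly over all 45101 probe sets, 5 of its 6 probe sets passed, with log2 fold changes from 1.72 to 2.68, and the remaining one gave 2.87 (adjusted p = 0.0803).

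Dkk2, a secreted ligand of the Wnt co-receptors, read 4.48, 4.42 and 4.22 in 15lox/1572T, 5.41, 5.83 and 5.98 in 15lox/1638N, and 7.30, 6.89 and 6.70 in 15lox/15lox. Its 15lox/1572T and wild-type (4.40, 4.54 and 4.68) values lay at the level of a probe set without its target. Against these readings it was 2.58-fold higher in 15lox/1638N (log2 fold change 1.37 ± 0.17, adjusted p = 0.00553), and 15lox/15lox was higher still by 1.22 ± 0.17 (adjusted p = 0.0114). The 15lox/1638N mean lay only 0.13 above the upper end of that level on the log2 scale, and 15lox/1638N array 1 (5.41) lay within it.

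Nkd1, a cytoplasmic inhibitor that binds Dishevelled, depended on the probe set. The brightest, used for the gene, gave 0.86 ± 0.17 (adjusted p = 0.0813). Probe set 1429506_at read 5.09, 5.20 and 5.55 in 15lox/1572T and 7.08, 7.23 and 8.06 in 15lox/1638N, without overlap. Its 15lox/1572T arrays lay within the level of a probe set without its target, and against them it was 4.52-fold higher in 15lox/1638N (log2 fold change 2.18 ± 0.24, adjusted p = 0.00385 over all probe sets), and 1440446_at was 3.19-fold higher (1.67 ± 0.24, adjusted p = 0.0195). The median log2 fold change of the 19 feedback inhibitors was 0.22. The other members that did not pass included the ubiquitin ligases Znrf3 (0.64, adjusted p = 0.244) and Rnf43 (0.14, adjusted p = 0.939), the Wnt deacylase Notum (0.45, adjusted p = 0.68) and Wif1, a secreted Wnt-binding protein (0.22, adjusted p = 0.724).

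**Figure D1:**
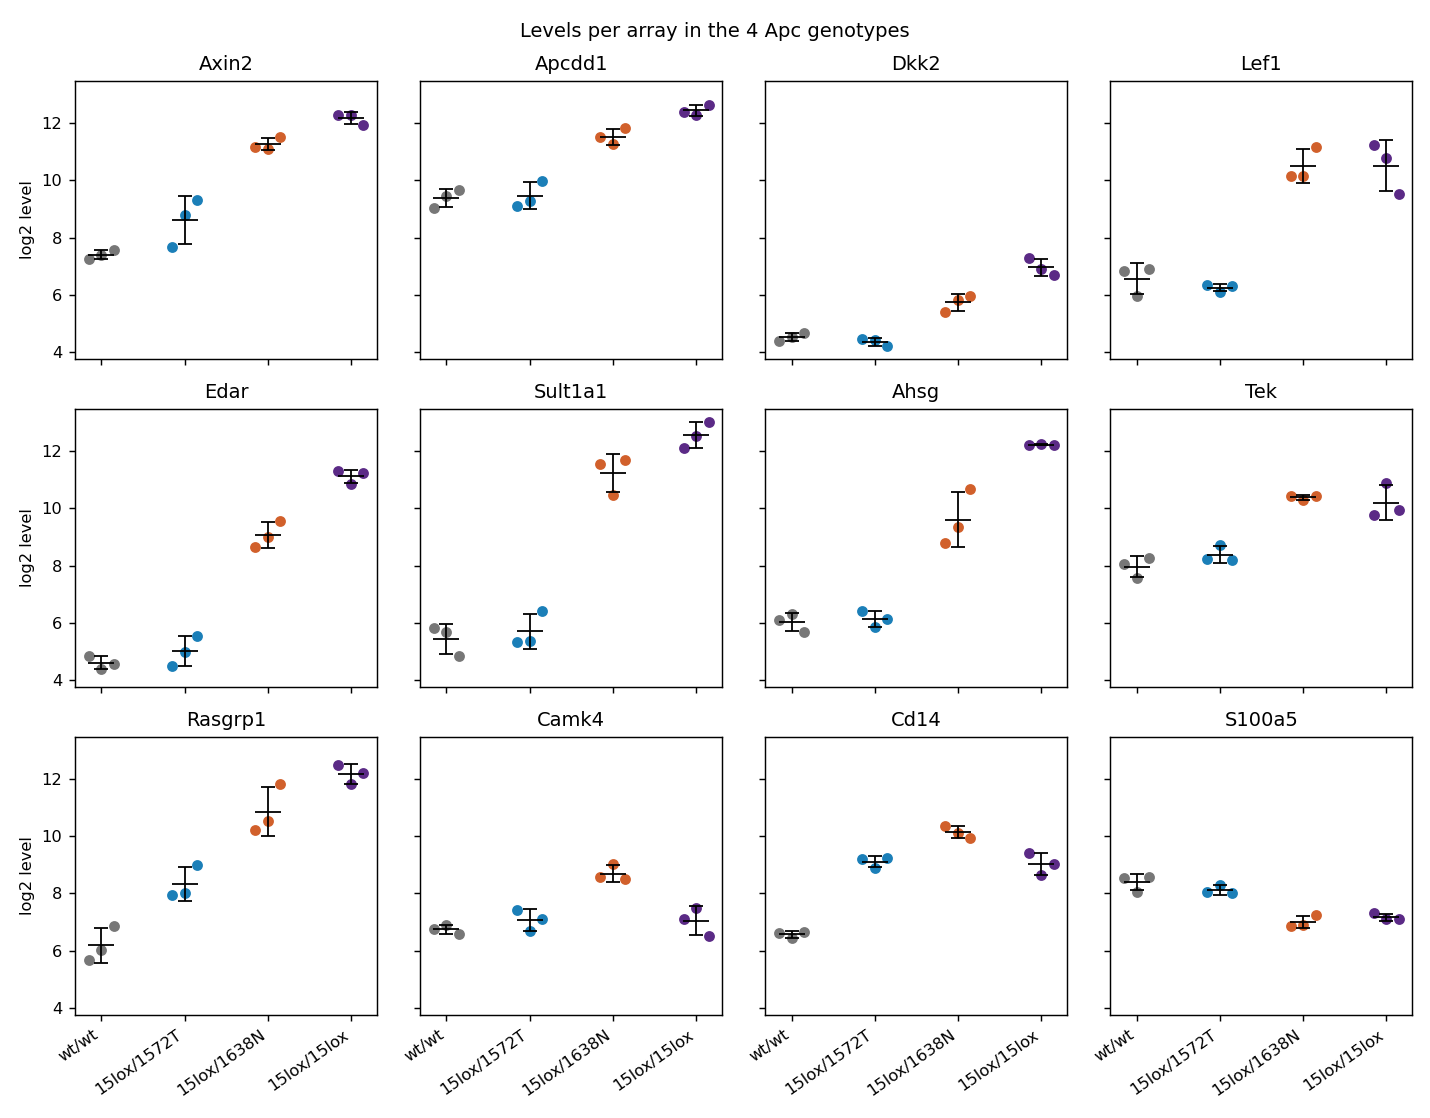
Log2 level of 12 genes on each array (points) in the 4 Apc genotypes, with the mean and SD of 3 arrays (bars). Axin2, Apcdd1, Dkk2, Edar, Sult1a1, Ahsg and Rasgrp1 rank 15lox/1638N between 15lox/1572T and 15lox/15lox, Camk4 and Cd14 are highest in 15lox/1638N, and S100a5 is low in both 15lox/1638N (6.88 to 7.25) and 15lox/15lox (7.10 to 7.32).

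Upstream of these genes no difference passed in limma. Of the 15 genes listed for the destruction complex, a list that counts Axin2 among the feedback inhibitors instead, 0 passed (1 lower at an unadjusted p under 0.05), and of the 21 Wnt receptors and transducers 0 passed (1 higher and 2 lower on that measure), with median log2 fold changes of -0.01 and 0.04. Ctnnb1, which encodes beta-catenin, gave 0.10 ± 0.10 (adjusted p = 0.764). This is its mRNA, and the amount of beta-catenin protein was not measured. Fewer cells of a type and less RNA per cell cannot be told apart in these bulk samples.

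Apc itself was read by 4 probe sets. On 1420956_at the 15lox/1572T arrays read 8.96, 8.86 and 8.64, the 15lox/1638N arrays 8.47, 8.67 and 8.52, the wild-type arrays 9.72, 9.61 and 9.93 and the 15lox/15lox arrays 5.58, 6.10 and 5.69. On this probe set the hypomorphs overlapped each other, below wild type and far above 15lox/15lox, which carries no other copy of the gene. Between the hypomorphs it gave -0.27 ± 0.15 (adjusted p = 0.696 over all probe sets). The other probe sets gave -0.53 ± 0.23, -0.34 ± 0.13 and 0.22 ± 0.17, with adjusted p of 0.631, 0.605 and 0.77. The probe set with the highest mean, 1435543_at, had another order. It read 10.42, 10.11 and 10.07 in 15lox/1572T, 9.84, 9.82 and 9.91 in 15lox/1638N, 9.57, 9.61 and 9.85 in wild type and 10.46, 10.23 and 10.66 in 15lox/15lox. The hypomorphs did not overlap on it, with 15lox/1572T the higher, and 15lox/15lox was above wild type (0.77, adjusted p = 0.0133). Which probe sets lie in the part that Cre deletes was not determined here.

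**Figure D2:**
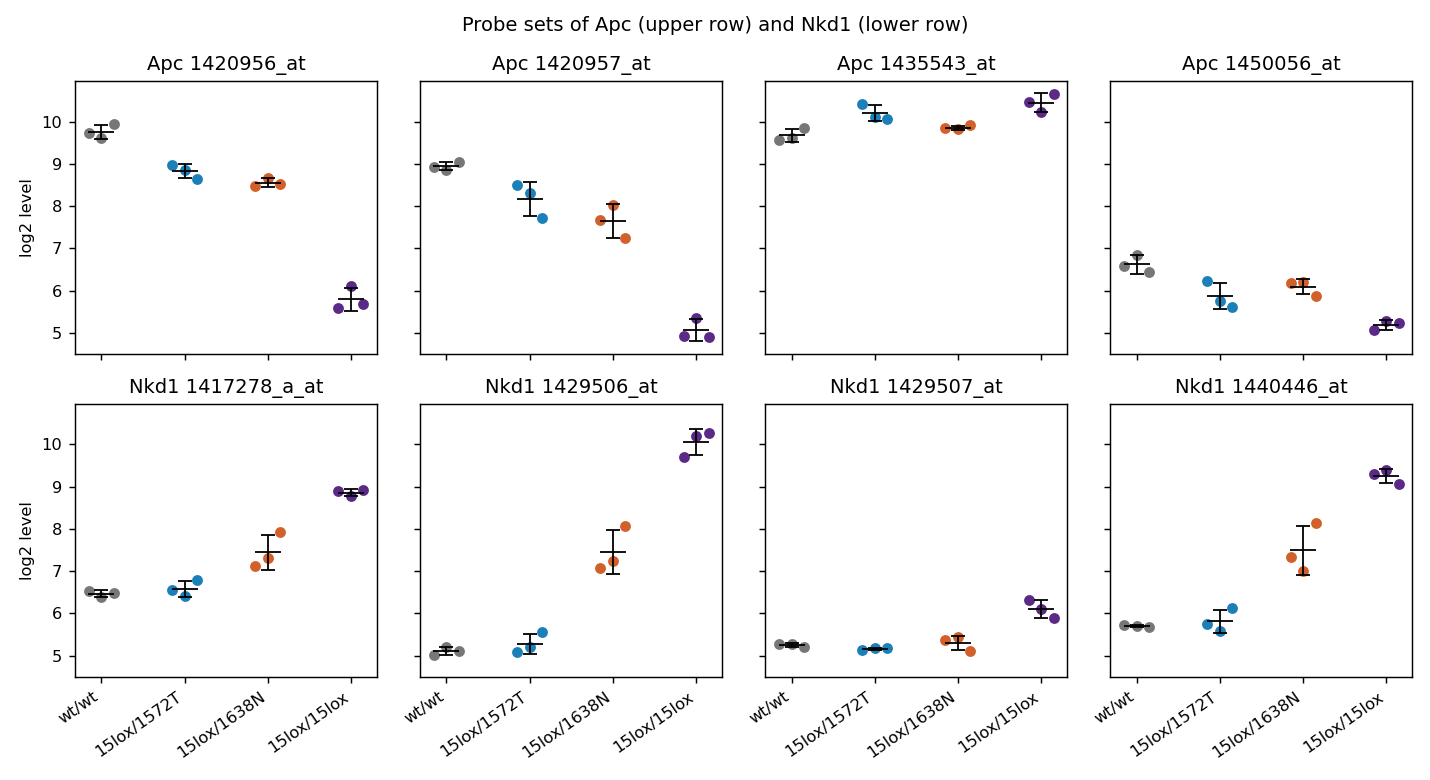
Log2 level on each array (points) of the 4 probe sets of Apc and the 4 of Nkd1 by genotype, with the mean and SD of 3 arrays (bars). The Apc probe sets 1420956_at and 1420957_at drop in 15lox/15lox. On both the hypomorphs overlap, with log2 fold changes of -0.27 and -0.53 that did not pass. The Nkd1 probe sets 1429506_at and 1440446_at separate 15lox/1638N from 15lox/1572T while 1429507_at does not (log2 fold change 0.14, adjusted p = 0.797).

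Of the 24 measured Wnt target genes, 2 were higher and 0 lower in 15lox/1638N, where 0.33% and 0.022% of all genes were. At an unadjusted p under 0.05, 5 (20.8%) were higher and 1 (4.17%) lower, against 3.74% and 5.5% of all genes. Lef1, a DNA-binding partner of beta-catenin and itself a target, read 6.36, 6.12 and 6.30 in 15lox/1572T and 10.15, 10.16 and 11.17 in 15lox/1638N. The former lay within the range of wild type (6.85, 5.96 and 6.91), and the latter overlapped 15lox/15lox (11.22, 10.79 and 9.53). The log2 fold change was 4.23 ± 0.41 (18.8-fold, adjusted p = 0.00084), and 15lox/15lox did not differ detectably from 15lox/1638N (0.02 ± 0.41, adjusted p = 0.987). Its other probe set gave 0.36 (adjusted p = 0.535), but read at most 4.66 in any genotype fitted, within the level of a probe set without its target. Lef1 was also the only one of 11 measured Tcf/Lef factors and cofactors to pass.

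Edar, the receptor for ectodysplasin, read 4.51, 4.99 and 5.54 in 15lox/1572T, 8.63, 9.01 and 9.55 in 15lox/1638N and 11.28, 10.86 and 11.22 in 15lox/15lox. These genotypes did not overlap. In wild type the arrays read 4.85, 4.40 and 4.58, so that 15lox/1572T array 1 lay within their range and arrays 2 and 3 above it. The 15lox/1572T and wild-type arrays all lay within the level of a probe set without its target. Edar was 16.6-fold higher in 15lox/1638N than these 15lox/1572T readings (log2 fold change 4.05 ± 0.27, adjusted p = 0.00014), the lowest p between the alleles, and its 15lox/1638N mean lay 3.46 above the upper end of that level on the log2 scale. It was 4.15-fold higher again in 15lox/15lox (adjusted p = 0.00782). A second Edar probe set gave -0.03 (adjusted p = 0.962). It read at most 3.86 in any genotype fitted, not above the level of a probe set without its target. Edaradd, the adaptor that Edar recruits, was chosen after its values were seen and was 2.22-fold higher in 15lox/1638N (1.15 ± 0.19, adjusted p = 0.0262).

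The other Wnt targets varied. Bmp4, a secreted growth factor, gave 2.24 (adjusted p = 0.0682), Tnfrsf19 0.68 (adjusted p = 0.282) and the stem cell receptor Lgr5 0.49 (adjusted p = 0.19). The cell cycle genes Myc (0.41 ± 0.41, adjusted p = 0.775) and Ccnd1 (0.11 ± 0.17, adjusted p = 0.862) did not pass. Ccnd1 turned to -0.03 without 15lox/1572T array 1. The median of the list was 0.06.

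The genes higher in 15lox/1638N were searched for the core Tcf/Lef motif in the 250 bases before their start. The motif CTTTGAT, or ATCAAAG on the other strand, was found in 3 of 46 genes called higher that had a promoter in the RefSeq table for build GRCm38.p6 (6.52%), against 3.72% of all 27025 genes in that table. The 3 windows are shown as context for Edar, the doublecortin-like kinase Dclk1 and the neuropilin Nrp2, each 5′ to 3′ on the gene's own strand and ending at the base before the start, with the motif in capitals. The Edar window is chr10:58675697-58675946 on the minus strand, that of Dclk1 is chr3:55242114-55242363 on the plus strand and that of Nrp2 is chr1:62703067-62703316 on the plus strand.
Edar: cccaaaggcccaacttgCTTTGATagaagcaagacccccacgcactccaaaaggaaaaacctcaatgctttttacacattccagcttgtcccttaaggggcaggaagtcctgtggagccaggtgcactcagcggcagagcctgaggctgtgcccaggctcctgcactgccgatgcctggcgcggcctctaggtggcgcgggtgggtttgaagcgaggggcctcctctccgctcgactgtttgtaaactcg
Dclk1: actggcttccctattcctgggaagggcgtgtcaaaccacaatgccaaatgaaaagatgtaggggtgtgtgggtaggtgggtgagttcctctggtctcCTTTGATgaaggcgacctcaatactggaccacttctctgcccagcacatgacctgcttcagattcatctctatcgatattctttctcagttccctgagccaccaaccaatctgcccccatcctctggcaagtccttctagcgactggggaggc
Nrp2: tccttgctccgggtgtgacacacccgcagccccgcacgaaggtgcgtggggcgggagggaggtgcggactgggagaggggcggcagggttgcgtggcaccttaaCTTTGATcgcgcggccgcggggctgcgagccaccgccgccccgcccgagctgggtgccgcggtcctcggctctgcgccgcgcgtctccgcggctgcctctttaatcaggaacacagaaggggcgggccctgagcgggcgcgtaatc

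Each match lay on the gene's strand, with its first base at -233 in Edar, -153 in Dclk1 and -146 in Nrp2. Between the alleles Dclk1 gave a log2 fold change of 2.50 ± 0.44 (adjusted p = 0.036), against 15lox/1572T arrays (4.53, 4.43 and 4.32) within the level of a probe set without its target, and Nrp2 one of 1.75 ± 0.29 (adjusted p = 0.0289). Both were chosen for the motif, after their values were seen, and their calls held in 3 and 5 of the 12 fits that leave out 1 array. A match is a description of letters, and binding was not measured.

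The gene with the greatest fold change of the comparison was Sult1a1, a sulfotransferase that conjugates phenols. Its arrays read 5.33, 5.38 and 6.42 in 15lox/1572T, 11.55, 10.46 and 11.68 in 15lox/1638N, and 12.10, 12.51 and 13.02 in 15lox/15lox. Wild type (5.81, 5.69 and 4.83) and 15lox/1572T overlapped, and the other genotypes stood far above them. Sult1a1 was 45.9-fold higher in 15lox/1638N (log2 fold change 5.52 ± 0.40, adjusted p = 0.00016). Its readings of 5.33 and 5.38 in 15lox/1572T and 4.83 in wild type lay within the level of a probe set without its target (up to 5.61). The size of the fold is therefore taken partly against readings that may hold no signal.

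Ahsg, which encodes the secreted glycoprotein fetuin-A, read 6.41, 5.86 and 6.12 in 15lox/1572T, 8.79, 9.35 and 10.67 in 15lox/1638N, and 12.20, 12.24 and 12.21 in 15lox/15lox. The 15lox/1638N arrays filled the gap between the others, with the highest SD (0.96, n = 3) among the genotypes, against 0.02 in 15lox/15lox. It was 11.1-fold higher in 15lox/1638N (3.48 ± 0.36, adjusted p = 0.00164), and 6.11-fold higher again in 15lox/15lox (adjusted p = 0.00992).

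Among the 15 genes with the greatest log2 fold changes were also Zcchc14, a zinc finger protein (10.6-fold, adjusted p = 0.00225), Plpp1, a lipid phosphate phosphatase (9.72-fold, adjusted p = 0.00084), and Ntrk3, the receptor of neurotrophin-3 (8.32-fold, adjusted p = 0.00512). Pxdc1, with a lipid-binding PX domain, was 7.86-fold higher (adjusted p = 0.00084) and Tubb3, a tubulin best known in neurons, 7.74-fold (adjusted p = 0.0213). The 15lox/1638N means of these genes lay between those of 15lox/1572T and 15lox/15lox. Those of Ntrk3 were 5.94 ± 0.84 in 15lox/1572T, 8.99 ± 0.48 in 15lox/1638N and 10.22 ± 0.41 in 15lox/15lox (SD, n = 3 each). Between 15lox/15lox and 15lox/1638N none of these genes passed in limma (adjusted p from 0.264 for Plpp1 to 0.654 for Pxdc1). The arrays of Zcchc14, Pxdc1 and Tubb3 overlapped between those genotypes. Mb21d2 was 6.93-fold higher than 15lox/1572T readings at the level of a probe set without its target (adjusted p = 0.00722) and Efhd1, a calcium-binding protein of mitochondria, 6.39-fold (adjusted p = 0.0213). The Tubb3 call ended without 15lox/1572T array 1 or 2, and that of Efhd1 without 15lox/1572T array 1 or 3 or 15lox/1638N array 2 or 3.

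Genes known from blood lineages were spread over several lists, with 1 or 2 members of each past the threshold. Of all genes 0.33% passed as higher and 0.022% as lower. Tek, the angiopoietin receptor found on blood stem cells and endothelium, read 8.22, 8.71 and 8.20 in 15lox/1572T and 10.44, 10.27 and 10.41 in 15lox/1638N. The 15lox/1638N arrays lay within the range of 15lox/15lox (9.76, 10.89 and 9.93), and the 15lox/1572T arrays reached no higher than 8.71, against 8.26 in wild type. Tek was 3.99-fold higher in 15lox/1638N (2.00 ± 0.27, adjusted p = 0.00763) and the only one of 29 stem cell genes to pass. Others of that list, such as Procr (0.25, adjusted p = 0.883), Hlf (0.01, adjusted p = 0.996) and Slamf1 (-0.71, adjusted p = 0.646), did not, and the list's median was -0.11. At an unadjusted p under 0.05, 2 of the 29 (6.9%) were higher and 5 (17.2%) lower, against 3.74% and 5.5% of all genes. The number lower ran from 1 to 10 when an array was left out. Of 18 stromal and endothelial genes 0 passed in limma (2 higher and 1 lower at an unadjusted p under 0.05), at a median of 0.01.

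The T cell list had 2 of 19 members higher and 0 lower. At an unadjusted p under 0.05, 4 (21.1%) were higher and 2 (10.5%) lower, against 3.74% and 5.5% of all genes. Rasgrp1, which activates Ras below the T cell receptor, read 7.95, 8.03 and 9.01 in 15lox/1572T, 10.22, 10.53 and 11.81 in 15lox/1638N, 12.48, 11.81 and 12.21 in 15lox/15lox, and 5.67, 6.03 and 6.86 in wild type. On this probe set all 15lox/1572T arrays were above all wild-type arrays, and the 15lox/1638N arrays met those of 15lox/15lox. The log2 fold change between the hypomorphs was 2.52 ± 0.43 (5.75-fold, adjusted p = 0.0308), and its adjusted p reached 0.162 over all settings. The call ended without wild-type array 5, 15lox/15lox array 1, 15lox/1572T array 1 or 2, or 15lox/1638N array 2 or 3. Over all probe sets its adjusted p was 0.0625. The other, dimmer Rasgrp1 probe sets gave 1.11, 1.54 and 1.09 between the hypomorphs (adjusted p = 0.535, 0.249 and 0.294 over all probe sets). On them 15lox/1572T differed from wild type by 0.02, 0.14 and -0.15, with both genotypes within the level of a probe set without its target. The defining T cell genes Cd3e (0.20, adjusted p = 0.585), Cd4 (0.01, adjusted p = 0.978) and Cd8a (0.04, adjusted p = 0.945) stayed low on all hypomorph arrays, with Cd8a at most 5.84. Gata3 gave 0.95 (adjusted p = 0.31), and the list's median was 0.04.

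Cd160, a surface receptor of NK and T cells, was 7.58-fold higher in 15lox/1638N (9.87 ± 0.21 against 6.94 ± 0.62, SD, n = 3 each; adjusted p = 0.00084). Of 9 NK cell genes 0 passed in limma (1 lower at an unadjusted p under 0.05). Cd83, a surface protein of mature dendritic cells, read 6.46, 6.31 and 6.00 in 15lox/1572T and 8.29, 8.89 and 9.57 in 15lox/1638N. These arrays did not overlap, and 15lox/15lox was higher still (10.64, 11.13 and 10.82). Its fold was 6.33 (2.66 ± 0.26, adjusted p = 0.00084), while the MHC class II genes of the same list, Cd74 (-1.45, adjusted p = 0.548) and H2-Aa (-1.41, adjusted p = 0.603), gave values of the opposite sign that did not pass. Itga2, a subunit of a collagen-binding integrin, was the only one of 19 homing and adhesion genes to pass (3.20-fold, 1.68 ± 0.22, adjusted p = 0.00553).

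**Figure D3:**
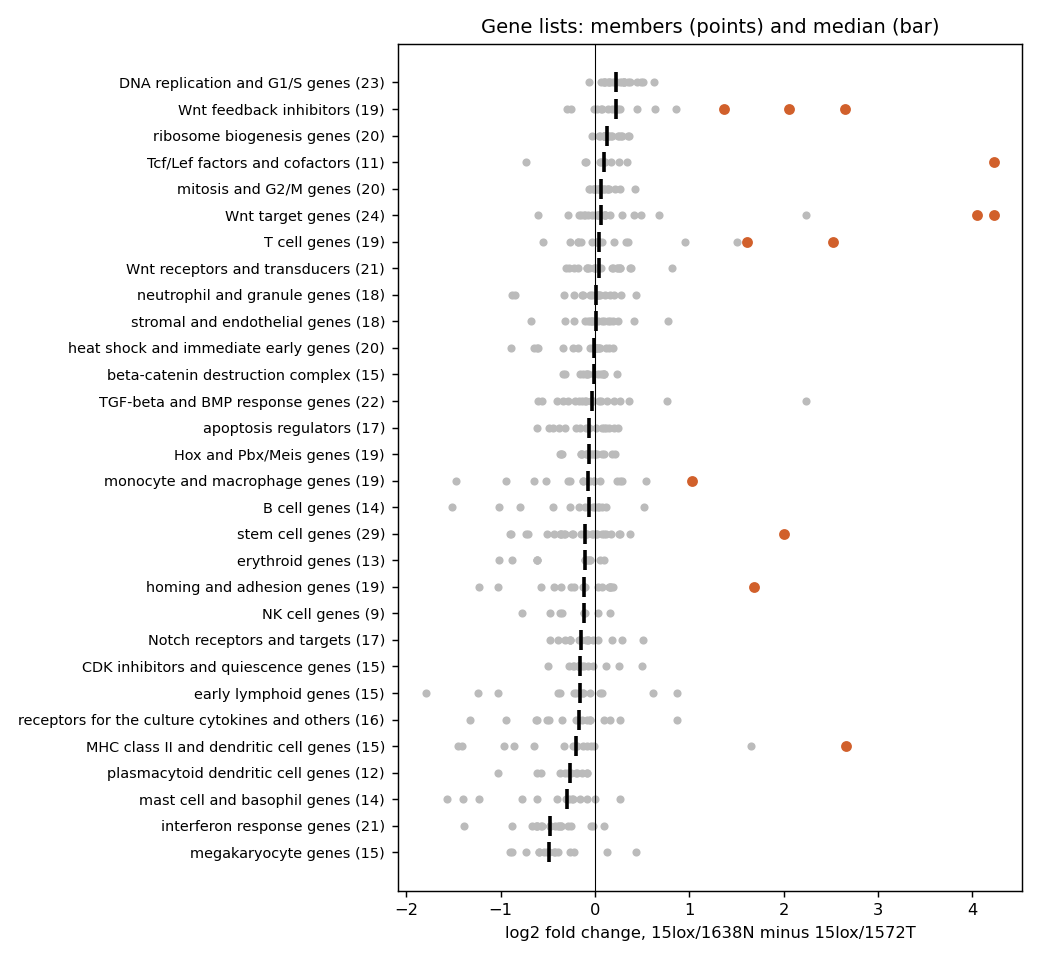
Log2 fold change of 15lox/1638N minus 15lox/1572T for the members of 30 gene lists (points, with members past an adjusted p of 0.05 in orange) and the list median (black bar), with the number of measured members in brackets. The passing members stand on the right, apart from the bulk of their lists, and the medians run from -0.49 for megakaryocyte genes to 0.22 for Wnt feedback inhibitors.

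The differences between the hypomorphs were set beside those between 15lox/15lox and wild type, which use other arrays within the same fit. Of the 60 genes higher in 15lox/1638N, 56 were also higher in 15lox/15lox than in wild type, where 327 of all genes (1.8%) were. The 56 make up 93.3% of the first list and 17.1% of the second, and 59 of the 60 had the same sign. In a fit of the 15lox/15lox and wild-type arrays alone the number was again 56. The median log2 fold change of the 60 genes was 1.60 between the hypomorphs and 2.42 between 15lox/15lox and wild type.

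Taken from the other side, 295 genes were higher in 15lox/15lox in the fit that held none of the hypomorph arrays. Between the hypomorphs 281 of them (95.3%) had a positive log2 fold change, against 47.5% of all genes, and the median was 0.60 with quartiles of 0.29 and 1.04. The 15lox/1638N arrays lay wholly above those of 15lox/1572T for 174 (59.0%), against 6.96% of all genes, and 56 passed. For the 96 genes lower in 15lox/15lox the median was -0.36, 9 (9.38%) were positive and 1 passed as lower. Most of these genes therefore had the same sign in both comparisons without passing singly between the hypomorphs.

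**Figure D4:**
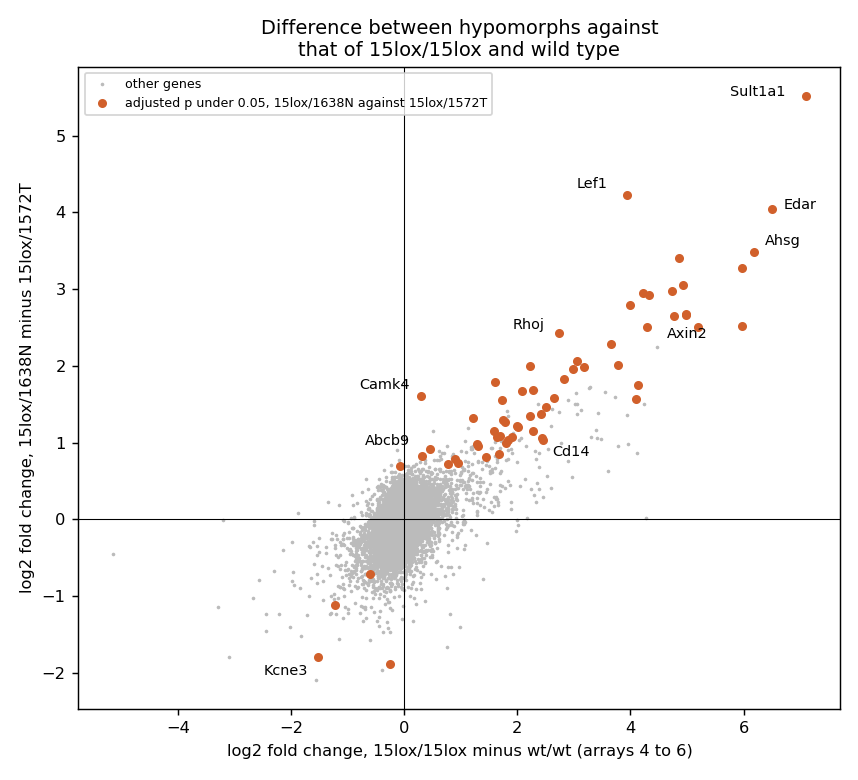
Log2 fold change of 15lox/1638N minus 15lox/1572T against that of 15lox/15lox minus wild type (arrays 4 to 6) for 18194 genes, with the 64 genes past an adjusted p of 0.05 between the hypomorphs in orange. Most orange points lie in the upper right, with Sult1a1 at 7.10 and 5.52, while Camk4 (0.29 and 1.61) stands above the vertical axis line.

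Most of these genes held an intermediate mean level in 15lox/1638N. The 15lox/1638N mean lay below the 15lox/15lox mean for 49 of the 60, and for 33 the 15lox/15lox arrays lay wholly above. These counts describe the chosen genes, and the share of all genes with this order was not counted. Tested directly, 10 of the 60 were higher in 15lox/15lox than in 15lox/1638N, where 0.39% of all genes were. Another 3 were lower in 15lox/15lox (Camk4, Cd14 and Pla2g4c), where 0.0275% of all genes were. Both counts share the 15lox/1638N arrays with the choice of the 60 genes. They are therefore a description, for which the shares of all genes are no fair baseline. The 10 were Edar, Ahsg, Cd83, Phlda1, Prkaa2, Xkrx, Tfcp2l1, Dkk2, Tmem163 and Bend5. Tfcp2l1, a transcription factor of epithelia and embryonic stem cells, showed the step well, with 5.17, 5.12 and 5.33 in 15lox/1572T, 6.66, 6.13 and 7.52 in 15lox/1638N and 9.24, 9.25 and 9.65 in 15lox/15lox. Its 15lox/1572T arrays matched those of wild type (5.40, 5.28 and 5.17), and no array of the other genotypes overlapped. The 15lox/1572T and wild-type readings lay within the level of a probe set without its target. Tfcp2l1 was 2.96-fold higher in 15lox/1638N than these 15lox/1572T readings (adjusted p = 0.0308, held in 4 of the 12 fits that leave out 1 array) and 6.10-fold higher again in 15lox/15lox (adjusted p = 0.00245).

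The same 60 genes were set beside wild type in each genotype. They were chosen for a higher level in 15lox/1638N than in 15lox/1572T, so the values of both hypomorphs share arrays with the choice and are a description. Their median log2 difference from the wild-type mean was 0.20, 0.12 and 0.29 on the 15lox/1572T arrays, 1.65, 1.81 and 2.14 on the 15lox/1638N arrays, and 2.51, 2.45 and 2.20 on the 15lox/15lox arrays. The comparisons with wild type share its 3 arrays. The 15lox/1572T mean was more than 2-fold above wild type for 7 of the 60, among them Cd14 (2.53 on the log2 scale), Rasgrp1 (2.14), Nrp2 (1.70), Plpp1 (1.59) and Pxdc1 (1.41). Between 15lox/1572T and wild type 1 of the 60 passed as higher (Cd14) and 0 as lower, where 0.0275% and 0.0824% of all genes did. Over all genes 15lox/1638N stood further from wild type than 15lox/1572T, with 195 higher (1.07%) and 436 lower (2.4%), against 5 higher and 15 lower. In 15lox/15lox 327 were higher (1.8%) and 137 lower (0.753%). By the number of lower genes 15lox/1638N was therefore not between the other mutants. Among the 60 genes, the 15lox/1572T arrays all lay above wild type for 18 and all below for 5. The share of all genes with such arrays was not counted. Within 15lox/1638N, array 3 was the highest for 46 of the 60 genes, and it was the array with high Xist in its group. Without it 47 genes passed, 40 of them among the 64, and with Xist class as a covariate 67 passed, 61 of them among the 64.

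**Figure D5:**
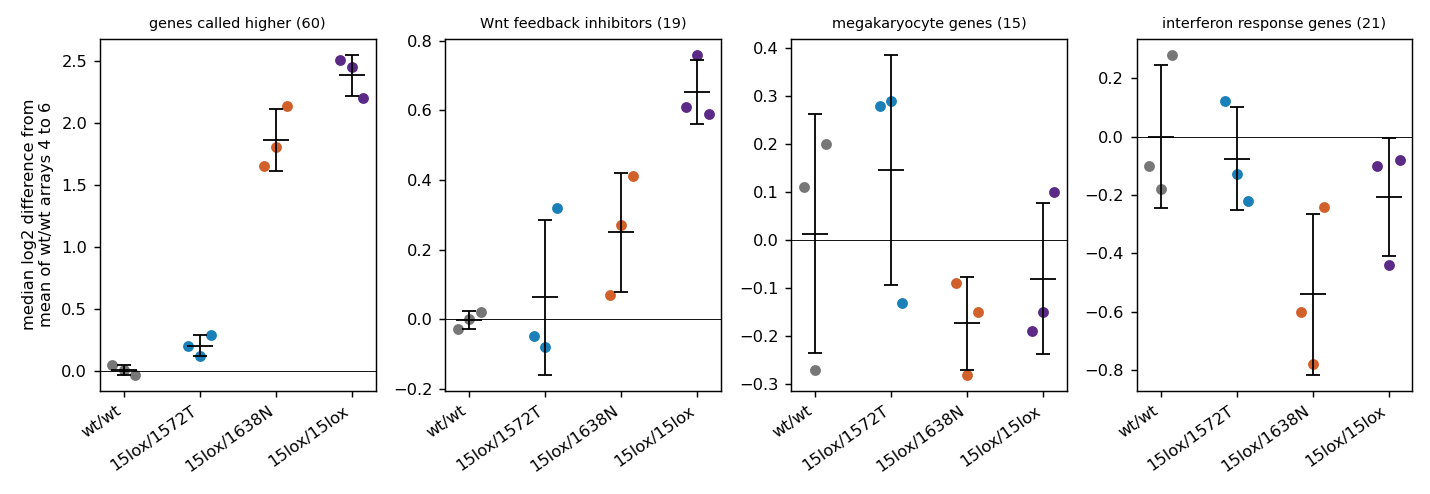
Median over 4 gene sets of the log2 difference from the mean of wild-type arrays 4 to 6, for each array (points), with the mean and SD of 3 arrays (bars) and the number of genes in brackets; each panel has its own vertical scale. For the 60 genes called higher, a set chosen on the hypomorph arrays, the 15lox/1572T arrays stay at 0.12 to 0.29 and the 15lox/1638N arrays at 1.65 to 2.14, while the megakaryocyte medians of the hypomorphs overlap and the interferon medians come as close as -0.22 and -0.24.

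Not all genes followed this order. Camk4, Pla2g4c, Abcb9 and Dennd6b were higher in 15lox/1638N but did not pass between 15lox/15lox and wild type. Camk4, a calcium/calmodulin-dependent kinase and the second T cell gene to pass, read 7.43, 6.69 and 7.12 in 15lox/1572T, 8.56, 9.02 and 8.49 in 15lox/1638N, 7.11, 7.51 and 6.51 in 15lox/15lox and 6.77, 6.91 and 6.59 in wild type. The 15lox/1638N arrays stood above all others, which overlapped. Its log2 fold change was 1.61 ± 0.25 (3.06-fold, adjusted p = 0.0178), and 15lox/15lox was lower than 15lox/1638N by 3.13-fold (adjusted p = 0.0158). The other 4 Camk4 probe sets gave 0.03 to 0.35 and none passed, and the call ended without 15lox/1572T array 2 or 15lox/1638N array 1 or 2.

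In the gene order of the chromosome that holds Apc, Camk4 is 4 tested genes away from Apc. Of the 10 tested genes on either side of Apc 1 of 20 (5.0%) passed, of the 50 on either side 2 of 100 (2.0%), and on the whole chromosome 4 of 462 (0.866%), against 0.352% of all genes. These were Camk4, Cd14, Sncaip and Apcdd1, the last of which is 216 tested genes from Apc. At an unadjusted p under 0.05 the numbers in either direction were 2 of 20, 10 of 100 and 43 of 462. Of all genes 3.74% were higher and 5.5% lower on that measure. A part of the flanking chromosome in the differences was not tested.

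Cd14, the co-receptor for bacterial lipopolysaccharide, had yet another pattern. It read 9.19, 8.88 and 9.25 in 15lox/1572T, 10.37, 10.11 and 9.95 in 15lox/1638N, 9.41, 8.66 and 9.02 in 15lox/15lox and 6.62, 6.45 and 6.67 in wild type. All mutant arrays were above all wild-type arrays, and those of 15lox/1638N were the highest. Against wild type 15lox/1572T was higher by 2.53 ± 0.18 on the log2 scale (adjusted p = 0.00027), and 15lox/1638N exceeded 15lox/1572T by 1.03 ± 0.18 (2.05-fold, adjusted p = 0.0351). The latter call held in 2 of the 12 fits that leave out 1 array, those without 15lox/15lox array 1 or 2. Other monocyte genes, Lyz2 (0.23, adjusted p = 0.751) and Csf1r (-0.94, adjusted p = 0.625), did not pass, and Cd14 was the only one of 19 to do so.

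Pla2g4c, a cytosolic phospholipase, was 1.77-fold higher in 15lox/1638N than in 15lox/1572T (0.82 ± 0.13, adjusted p = 0.0215) and lower in 15lox/15lox than in 15lox/1638N by 1.85-fold (adjusted p = 0.0137). It was named after its values were seen, as was Rhoj, a small GTPase, whose 15lox/1638N arrays (9.49, 8.68 and 9.18) were above those of 15lox/15lox (7.72, 8.50 and 7.84). Rhoj was 5.41-fold higher in 15lox/1638N than in 15lox/1572T (2.43 ± 0.30, adjusted p = 0.00457), and its difference of -1.10 ± 0.30 between 15lox/15lox and 15lox/1638N did not pass (adjusted p = 0.231). Among the smaller differences were Thbd, which encodes thrombomodulin (1.80-fold, adjusted p = 0.00987), the nucleotidase Nt5e (2.99-fold, adjusted p = 0.027), the adenosine deaminase Ada (1.75-fold, adjusted p = 0.00722) and the peptidase Dpp4 (1.72-fold, adjusted p = 0.0361), all also chosen after their values were seen. The calls of Dpp4 and Nt5e held in 3 and 6 of the 12 fits that leave out 1 array, against 10 for Thbd and 12 for Ada.

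Only 4 genes were lower in 15lox/1638N. S100a5, a calcium-binding protein, read 8.05, 8.31 and 8.01 in 15lox/1572T and 6.88, 6.90 and 7.25 in 15lox/1638N. The latter lay beside 15lox/15lox (7.32, 7.10 and 7.10), and the former beside wild type (8.54, 8.06 and 8.58). S100a5 was 2.17-fold lower (log2 fold change -1.12 ± 0.16, adjusted p = 0.00902), a call that ended without 15lox/1572T array 2. Kcne3, a subunit of potassium channels, read 7.89, 7.46 and 7.74 in 15lox/1572T and 6.46, 5.33 and 5.90 in 15lox/1638N, without overlap. Its fold was 3.49 (-1.80 ± 0.33, adjusted p = 0.0489), and the call held under 11 of 28 settings, 3 of them among the 12 that leave out 1 array. Gchfr, a regulator of GTP cyclohydrolase, was 1.64-fold lower (-0.71 ± 0.12, adjusted p = 0.034, held in 3 of those 12). In S100a5, Kcne3 and Gchfr 15lox/15lox was also lower than wild type (0.753% of all genes), by 1.22, 1.53 and 0.61 on the log2 scale in that order, and 1 of the 3 passed when the 15lox/15lox and wild-type arrays were fitted alone.

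The fourth, the uncharacterised transcript G530011O06Rik, read 7.04, 7.73 and 7.69 in 15lox/1572T, 5.51, 5.92 and 5.34 in 15lox/1638N, and 7.10, 6.31 and 7.06 in 15lox/15lox. Here 15lox/1638N alone was low. Its log2 fold change was -1.89 ± 0.31 (adjusted p = 0.0242), and the call ended without 15lox/1572T array 2 or 3 or 15lox/1638N array 1 or 3. The next gene by p, Rpgr, gave -0.85 ± 0.16 (adjusted p = 0.0534).

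Lists for other lineages and states had no member past the threshold in limma. Of 15 megakaryocyte genes 0 passed after adjustment. The platelet chemokines Ppbp and Pf4 gave -0.88 (adjusted p = 0.267) and -0.39 (adjusted p = 0.285), von Willebrand factor (Vwf) -0.90 (adjusted p = 0.459) and the transcription factor Nfe2 -0.43 (adjusted p = 0.297). The list's median was -0.49, and 8 of its 15 members (53.3%) were lower at an unadjusted p under 0.05, against 5.5% of all genes. That number ran from 3 to 11 when an array was left out.

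The 21 interferon response genes had a median of -0.48, with Rsad2 at -1.39 (adjusted p = 0.375) and Oasl2 at -0.88 (adjusted p = 0.507). Of these genes 6 (28.6%) were lower at an unadjusted p under 0.05, a number that ran from 1 to 13 when an array was left out. In the mast cell and basophil list 4 of 14 (28.6%) were lower on that measure, with the protease Cpa3 at -0.77 (adjusted p = 0.277), and among cytokine receptors 5 of 16 (31.2%), with Csf2rb2 at -1.32 (adjusted p = 0.283). These numbers ran from 1 to 5 and from 1 to 6 when an array was left out. None of these passed after adjustment over all genes. The per-array medians of the megakaryocyte list overlapped between the hypomorphs, at 0.28, 0.29 and -0.13 in 15lox/1572T and -0.09, -0.28 and -0.15 in 15lox/1638N. Those of the other lists did not overlap. The interferon medians were 0.12, -0.13 and -0.22 in 15lox/1572T and -0.60, -0.78 and -0.24 in 15lox/1638N. The mast cell and basophil medians were 0.27, 0.08 and 0.25 against -0.09, -0.28 and -0.06, and the cytokine receptor medians 0.11, -0.05 and 0.07 against -0.18, -0.47 and -0.18, with 15lox/1572T given first.

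Proliferation genes had no member past the threshold in limma. The median of 23 DNA replication genes was 0.22, with 22 positive values, 0 members past the threshold and 2 (8.7%) higher at an unadjusted p under 0.05, against 3.74% of all genes. Ccne1 gave 0.63 (adjusted p = 0.59) and Tk1 0.45 (adjusted p = 0.478). For 20 mitosis genes the median was 0.06, with 0 at an unadjusted p under 0.05 in either direction. Early lymphoid genes had 0 of 15 past the threshold (3 lower at an unadjusted p under 0.05) and a median of -0.16, with Il7r at 0.87 (adjusted p = 0.625) and Cd7 at -1.79 (adjusted p = 0.419).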

How the data were processed

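Per the labels, 15 samples were measured on 1 array each. The deposited values are log2 probe set levels, as their range shows. RMA and the build mm9 are named per the submitters' processing notes, without version or role, and the settings are unknown here. It lists 45101 probe sets and 0 columns of other series. Symbols came from the platform annotation (34958 probe sets with 1 symbol, 932 with several, 9211 with none). The probe set with the highest mean over all arrays stood for each of 18194 genes, of which 9012 had over 1.

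Wild-type arrays 1 to 3 were left out, since 18.2% of probe sets had the same value on all of them, a share of at most 0.0177% in any other set. The other 12 arrays were fitted with limma 3.58.1 (lmFit and eBayes) in R 4.3.3, with 8 residual degrees of freedom, no covariate and no filter on level. Tests were two-sided, adjusted by Benjamini and Hochberg over all genes, with a threshold of 0.05. Values are log2 fold changes with SE.

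Members, gene lists and tests were chosen with earlier results of these data known. Named genes were the 15 highest and lowest log2 fold changes among genes past the threshold without overlap, a set of Wnt genes, up to 4 passing members per list, and the 5 lowest p where few passed, without placeholder symbols. Further ones were outside this rule. Some are said to be chosen after their values were seen, and others, such as Bmp4, Procr and Ppbp, are examples from their lists. The method was tested on simulated data. Alternatives covered the arrays fitted, normalization, eBayes options, array weights, the probe set rule, a level filter at 6, Xist class, thresholds, a replicate block and each array left out. Promoters came from RefSeq, and gene order from GRCm38.p6.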

Additional observations from a re-analysis of the deposited data

Results flagged for a closer look

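For 3 genes the 15lox/1638N arrays all lay above the wild-type arrays while the 15lox/1572T arrays all lay below them. Mb21d2 read 5.33, 6.25 and 5.36 in wild type, 4.60, 5.17 and 5.05 in 15lox/1572T and 7.69, 6.90 and 8.62 in 15lox/1638N, a log2 difference between the hypomorphs of 2.79 (adjusted p = 0.00722 in limma). All its 15lox/1572T arrays and 2 of its 3 wild-type arrays lay within the level of a probe set without its target (3.67 to 5.61), so their order carries no information. Xkrx read 8.32, 8.28 and 8.36 in wild type, 7.95, 7.63 and 7.67 in 15lox/1572T and 9.44, 9.33 and 10.37 in 15lox/1638N, a difference of 1.96 (adjusted p = 0.00278). Bend5 read 6.63, 6.51 and 6.52 in wild type, 5.68, 5.63 and 6.29 in 15lox/1572T and 6.96, 6.69 and 7.17 in 15lox/1638N, a difference of 1.07 (adjusted p = 0.0213). In these genes the values below wild type in 15lox/1572T did not pass (adjusted p = 0.713, 0.533 and 0.256 in that order).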

How the results depend on the processing

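With all 15 arrays 124 genes passed (101 higher, 23 lower), of which 98 also passed in 15lox/15lox against wild type, and with a separate group for wild-type arrays 1 to 3 13 were lower. The 9 mutant arrays gave 37 (35 higher, 2 lower; 33 at least 2-fold), and the 6 hypomorph arrays 16 (15 higher, 1 lower; 16 at least 2-fold). Array weights gave 125 (95 higher, 30 lower; 93 shared with 15lox/15lox), with the lowest weight for 15lox/1572T array 3 (0.366). An adjusted p of 0.01 left 32 (31 higher, 1 lower; 30 at least 2-fold; 32 shared), and one of 0.1 gave 15 lower. Leaving out 1 array gave 38 to 73 genes, 36 to 64 higher, 2 to 12 lower, 32 to 56 at least 2-fold and 36 to 62 shared; the lower counts rest on few genes. In separate fits of 6 arrays, chosen after seeing the data, 15 were shared. Same-numbered hypomorph arrays did not deviate together (r of -0.0811, -0.0343 and -0.0447), so numbers were not taken as pairs; with the replicate number as a block, the 9 mutant arrays gave 46 higher and 10 lower, of which 39 in all were among the 64. With Xist class as a covariate 67 passed, 61 of them among the 64. The 25 named genes past the threshold kept their direction under all 28 settings each, and 9 passed under every one: Sult1a1, Lef1, Edar, Zcchc14, Plpp1, Pxdc1, Cd160, Cd83 and Tek. Ccnd1, which did not pass, ran from -0.03 (without 15lox/1572T array 1) to 0.24 (without array 3) when an array was left out. Causes of these shifts were not tested beyond the change in arrays or threshold itself.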

Other observations

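The spread between arrays differed by group. The median within-group SD over genes was 0.161 in 15lox/1572T, 0.152 in 15lox/15lox and 0.123 in both 15lox/1638N and wild type. Of the 64 genes past the threshold, 37 had several probe sets, and of the 89 other probe sets of these genes 79 had the same sign and 15 passed in the same direction over all 45101 probe sets, in 9 genes. Ntrk3 shows how far they can part, with log2 fold changes from -0.21 to 3.40 over 8 probe sets.

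Lower values outnumbered higher ones at an unadjusted p under 0.05, unlike among genes past the threshold. Over all genes, 1001 (5.5%) were lower and 681 (3.74%) higher in 15lox/1638N than in 15lox/1572T. These counts include the genes past the threshold.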
